A study of Drosophila melanogaster with 8 samples.

Results

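This report describes 5 genes of Drosophila melanogaster, CG10910, CG14302, CG5550, pst and Tsp42Ec, whose microarray ratios lay above 0 on all 8 arrays of a comparison between guanylyl cyclase mutant and control larvae. They were taken by symbol from the 6793 genes named on the array, and each was read from 2 spots (10 spots of 27648). They were chosen by their ratios themselves, as genes of large positive mean over the Rover and sitter backgrounds, so their sign and mean size are given as a description, and the comparison made here is between the 2 backgrounds. The choice was made with earlier results of these data known.

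On the Rover arrays, larvae of the last instar carrying DGCalpha1[3] in the Rover background were set against Rover larvae without that allele. On the sitter arrays, sitter larvae carrying DGCalpha1[3] were set against sitter larvae without it. There were 4 spotted cDNA arrays per background, each labelled directly from 80 µg of total RNA of untreated larvae. The labels do not say whether arrays came from separate larvae or extracts, nor how many larvae were pooled, so each p-value measures only the spread between arrays, which may be technical.

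DGCalpha1[3] is a mutant allele of the gene for the alpha subunit of soluble guanylyl cyclase, which nitric oxide activates to make the second messenger cGMP. Rover and sitter are natural variants of the foraging gene, which encodes a cGMP-dependent protein kinase, and Rover larvae travel farther than sitter larvae while feeding. Of the 5 genes, Tsp42Ec (CG12847) encodes a tetraspanin, a membrane protein that organises partner proteins at the cell surface. CG5550 encodes a protein with a fibrinogen-like domain, a domain found in secreted recognition proteins of insects. The gene pst, pastrel (CG8588), is known for natural variants that alter resistance of flies to Drosophila C virus. CG10910 and CG14302 are known here only by their annotation numbers.

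The deposited value is 1 log ratio per spot and array, taken as log2. The labels do not say which channel is the numerator or which dye each RNA carried, so a ratio is called positive or negative, with no direction between mutant and control. A ratio holds no level, so expression could not be compared between genes, and the larval stage and tissues could not be checked from the levels of marker genes. Most spots were negative: array medians lay between -0.47 and -0.24 on Rover arrays and between -0.28 and -0.10 on sitter arrays, and the median gene stood at -0.34 in Rover and -0.15 in sitter. Values below are as deposited unless called centred, which means that the median of each array was subtracted. The mutated gene itself, Gycalpha99B, lay between -0.96 and 0.45 on the Rover arrays and between -0.52 and 0.18 on the sitter arrays, and it checks no label, since the position of its spots relative to the mutation is not given.

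All 5 genes were above 0 on each of the 8 arrays, which held for 1.32% of all named genes (90 of 6793) and is part of how they were found. Of the 80 single spot values of the 5 genes 79 were positive, and the exception was 1 spot of CG5550 on Rover 4, at -0.00137. By limma, with p-values adjusted over all 19325 features under 0.05, 4 of the 5 genes were called positive in Rover, where 1.7% of features were, and 3 in sitter, where 0.724% were. In the mean of both backgrounds all 5 were called, against 2.06% of features. Negative calls made up 45% of features in Rover, 23% in sitter and 46.8% in the mean. Centred, 5 of the genes were called positive in Rover (22.7% of features were), 4 in sitter (2.28%) and 5 in the mean (25.6%), and 14.4% of features were above 0 on every array. Negative calls then made up 25% of features in Rover, 11.5% in sitter and 33.3% in the mean. These are the contrasts that chose the genes, and nothing is read from the counts.

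CG14302 had ratios of 1.17, 1.41, 0.64 and 1.08 on Rover arrays 1 to 4, against 0.87, 1.08, 1.42 and 1.27 on sitter arrays 1 to 4. The ranges overlapped along most of their length, and on every array the gene lay among the 80 highest of the 6793 genes. Its mean was 1.07 ± 0.32 in Rover and 1.16 ± 0.24 in sitter (SD, n = 4 each). On a linear scale these means are ratios of 2.11 between the channels in Rover and 2.24 in sitter.

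Tsp42Ec, the tetraspanin gene, had 0.56, 1.11, 0.54 and 0.84 on the Rover arrays, against 0.66, 0.80, 0.61 and 0.78 on the sitter arrays. All sitter values fell inside the Rover range. The mean was 0.76 ± 0.27 in Rover and 0.71 ± 0.09 in sitter (SD, n = 4 each).

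CG5550, the gene with the fibrinogen-like domain, had 1.65, 2.14, 0.21 and 0.021 on the Rover arrays, against 0.68, 0.68, 2.03 and 0.45 on the sitter arrays. Rover 1, Rover 2 and sitter 3 were high, while Rover 3 and Rover 4 were close to 0. Similar means, 1.0 ± 1.05 in Rover and 0.96 ± 0.72 in sitter (SD, n = 4 each), therefore stood over widely scattered arrays. Without Rover replicate 2 the Rover mean was 0.62, and without sitter replicate 3 the sitter mean was 0.60. CG5550 was called in neither background by itself (limma adjusted p = 0.0545 in Rover and 0.0947 in sitter).

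The antiviral gene pst had 1.10, 0.87, 0.36 and 0.23 on the Rover arrays, against 0.53, 0.84, 1.44 and 0.85 on the sitter arrays. As for CG5550, Rover 1, Rover 2 and sitter 3 were its 3 highest arrays and, as deposited, Rover 3 and Rover 4 its 2 lowest. Centred, its lowest array was sitter 1 (0.634). Its mean was 0.64 ± 0.41 in Rover and 0.92 ± 0.38 in sitter (SD, n = 4 each).

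CG10910 had 3.08, 3.44, 1.89 and 1.63 on the Rover arrays, against 0.76, 1.25, 0.81 and 0.27 on the sitter arrays. The 2 backgrounds did not overlap. On Rover 1 and Rover 2 no other named gene had a higher ratio, whereas on sitter 4 the gene ranked 556 of 6793. Its mean was 2.51 ± 0.89 in Rover and 0.77 ± 0.40 in sitter (SD, n = 4 each), which is a linear ratio of 5.70 in Rover and 1.71 in sitter.

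**Figure D1:**
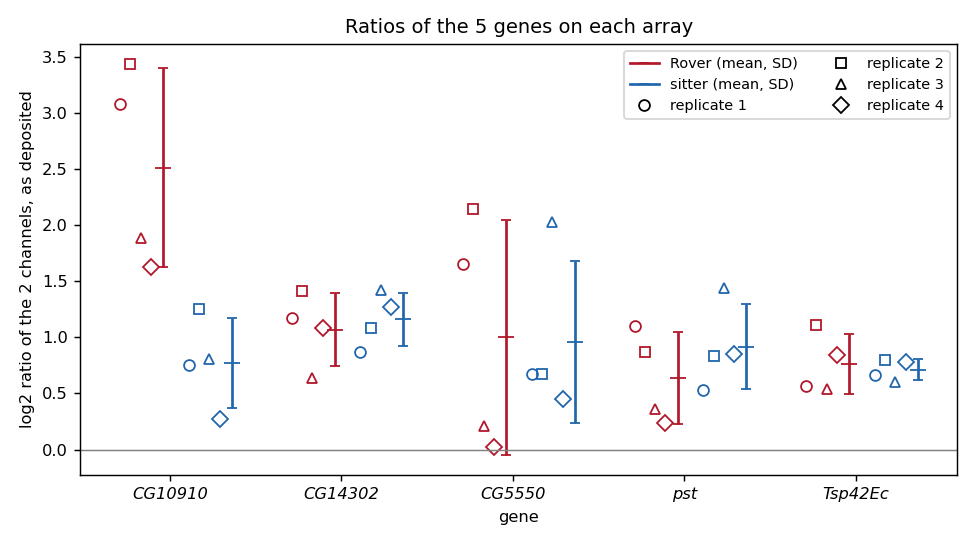
The deposited log2 ratio (vertical axis) of each of the 5 genes is shown for the 4 Rover arrays (red) and the 4 sitter arrays (blue), with the marker shape giving the replicate number and the bar the mean and SD. CG10910 is the gene whose Rover values, 1.63 to 3.44, lie above all of its sitter values, 0.27 to 1.25, and Tsp42Ec in sitter has the narrowest range, 0.61 to 0.80.

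Whether a ratio differed in size between backgrounds was tested as Rover minus sitter. This difference is independent of the mean that chose the genes only where both backgrounds have the same spread, and the SDs of all 5 were larger in Rover, so the choice favours a positive difference and the p-values are not independent of it. CG10910 was higher in Rover by 1.74 ± 0.42 (SE), with a 95% interval of 0.80 to 2.68, but did not pass. Its limma p of 0.00232 became 0.271 when adjusted over all features. CG10910 was also known beforehand as the gene of largest positive ratio in Rover, so its excess there is not independent of its choice. Within print lot A, taken to hold replicate 1 of each background although the labels spell the lot of these 2 arrays slightly differently, the difference was 2.32, and within lot B it was 1.55. Of all features 0.0466% were called in this contrast (9 of 19325), 9.4% had an unadjusted p under 0.05, and 5.94% (7.8% of named genes) had Rover arrays clear of their sitter arrays, as CG10910 had. Centred, CG10910 was again the 1 gene of the 5 in this state, which then held for 7.58% of features and 8.97% of named genes.

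For the other 4 genes the difference was smaller than its interval. CG14302 differed by -0.0865 ± 0.20 (SE; 95% interval -0.55 to 0.37), Tsp42Ec by 0.051 ± 0.17 (-0.33 to 0.43), pst by -0.28 ± 0.26 (-0.86 to 0.31) and CG5550 by 0.047 ± 0.53 (-1.16 to 1.25). Their limma adjusted p-values ran from 0.725 to 0.983. The intervals therefore still allow a difference as large as the mean ratio itself for CG5550 and pst, and a smaller one for CG14302 and Tsp42Ec. In pst the sign changed between lots: the difference was 0.57 within lot A and -0.56 within lot B. It did so for CG5550 too, at 0.97 and -0.26, for CG14302, at 0.30 and -0.21, and for Tsp42Ec, at -0.0962 and 0.0995, lot A being a single array in each background.

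Rover arrays lay lower as a whole, so that the median gene differed by -0.17 between backgrounds as deposited and by 0.03 once centred. Centred, CG10910 differed by 1.94 (adjusted p = 0.141) and CG14302 by 0.12, its sign turned. CG5550 stood at 0.25, Tsp42Ec at 0.26 and pst at -0.072. None of the 5 passed on this scale either, where limma called 0.0776% of features and 0.0883% of named genes. Centring adds the same amount to the difference of every gene.

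**Figure D2:**
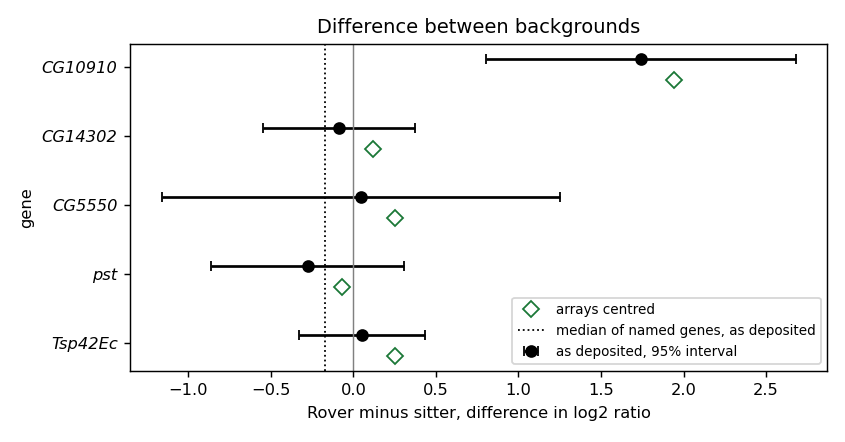
The horizontal axis is the difference in log2 ratio, Rover minus sitter, for each of the 5 genes: black points with 95% intervals are as deposited, green diamonds are after centring each array, and the dotted line marks the median of all named genes at -0.17. The interval of CG10910, 0.80 to 2.68, does not reach 0, and the other intervals include it.

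The spread between arrays differed widely among the 5 genes. In Rover the SD of CG5550, 1.05, was larger than that of 98.9% of the named genes, and that of CG10910, 0.89, larger than that of 97.8%, while CG14302 and Tsp42Ec lay near the middle, above 56.7% and 44.6%. In sitter CG5550 again lay high, above 97.6% of genes, whereas the SD of Tsp42Ec, 0.094, exceeded that of 11.5% of genes only. The median gene had an SD of 0.29 in Rover and 0.23 in sitter.

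All 5 genes had a larger SD in Rover than in sitter, as did 61.8% of the named genes. The ratio of the SDs, Rover over sitter, was 2.85 for Tsp42Ec, 2.21 for CG10910, 1.46 for CG5550, 1.35 for CG14302 and 1.08 for pst, and its median over genes was 1.23. An exact two-sided permutation test of the absolute deviations from the background median gave p = 0.0286 for Tsp42Ec and for CG10910, the smallest p that 4 arrays against 4 can give. It gave 0.171 for CG5550, 0.486 for pst and 0.971 for CG14302 (exact permutation test). Over all features 9.93% had p under 0.05 in this test and 0 passed after adjustment, the adjusted p of Tsp42Ec and CG10910 being 0.288. Deviations were taken from the median of the same arrays, which makes such a p somewhat too small. Without Rover replicate 2 the difference in mean absolute deviation, Rover minus sitter, was 0.0216 for Tsp42Ec, against 0.133 with all arrays. For CG10910 it was 0.227, against 0.495. The exact permutation p-values were then 0.914 for Tsp42Ec and 0.629 for CG10910, but neither could have come under 0.05. With any 1 Rover array left out, the middle one of the rest is their median and deviates by nothing. Swapping it for any sitter array gives a larger difference, so a gene more spread in Rover cannot reach such a p. It also lowers the mean deviation in Rover, so these values do not show how far single Rover arrays carried the result. With any 1 sitter array left out, CG10910 had an exact permutation p of 0.0286, and Tsp42Ec had one from 0.0857 to 0.257. The middle one of the remaining sitter arrays then deviates by nothing, which lowers the mean deviation in sitter. That favours a larger spread in Rover, so these values do not show that the result of CG10910 is robust. Centred, the exact permutation p of CG10910 was 0.114, and that of Tsp42Ec stayed at 0.0286. With deviations from the mean, that of Tsp42Ec was 0.0857, and that of CG10910 stayed at 0.0286. After centring, the SDs of CG14302 and pst were no longer larger in Rover: CG14302 had 0.27 in Rover and 0.30 in sitter, and pst 0.31 in Rover and 0.46 in sitter.

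**Figure D3:**
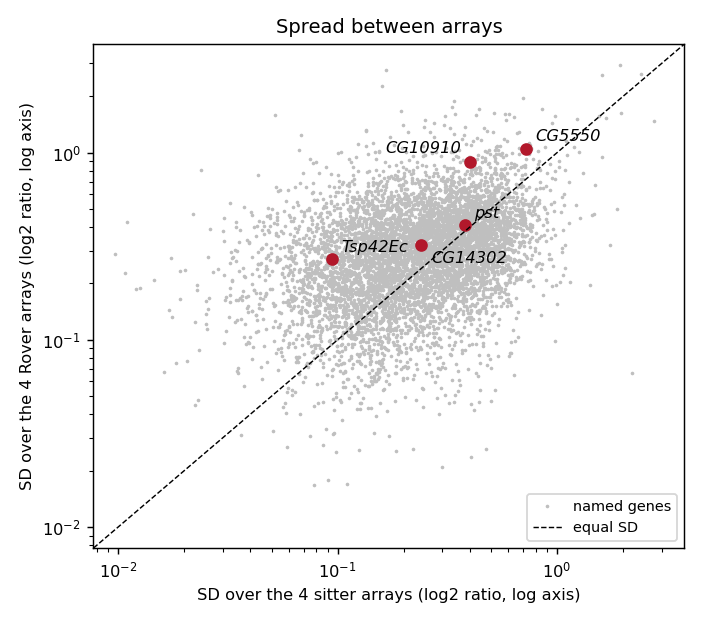
Each grey point is 1 of 6793 named genes, with the SD of its ratio over the 4 Rover arrays on the vertical axis and over the 4 sitter arrays on the horizontal axis, both logarithmic, and the 5 genes are in red. CG5550 and CG10910 sit high on the Rover axis with SDs of 1.05 and 0.89, and Tsp42Ec sits to the left with an SD of 0.094 in sitter.

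For each gene, except Tsp42Ec in sitter, the gap between the 2 spots on a slide was below the range over the arrays of a background. In Rover the largest gap of Tsp42Ec was 0.281, on Rover 1, against a range of 0.573. A range over 4 arrays tends to be wider than a gap between 2 spots. The gap between the 2 spots had a median over arrays of 0.058 for CG14302, 0.08 for CG10910 and pst, 0.211 for CG5550 and 0.236 for Tsp42Ec, and over all genes with 2 spots the median gap was 0.183. For CG5550 the largest gap, 0.26 on sitter 1, was far below the range between arrays of 2.12 in Rover and 1.57 in sitter. For Tsp42Ec the gap was 0.43, 0.28 and 0.203 on sitter 2, 3 and 4, each above the whole sitter range of 0.196, so on 3 of the 4 sitter arrays the spots lay farther apart than the array means did. The small sitter SD of this gene is thus below the scatter between its own spots.

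On some arrays the ratios of CG5550 and pst ran against that of Eig71Ee, a late gene of the ecdysone response that was listed as a salivary gland marker. Eig71Ee had -0.38, -0.24, 3.63 and 4.75 on Rover arrays 1 to 4, against 0.27, -0.17, -5.03 and -0.98 on sitter arrays 1 to 4. As deposited, it was thus highest on Rover 3 and Rover 4, where CG5550 was lowest. It was lowest on sitter 3, the sitter array on which CG5550 was highest. Rover 3 and Rover 4 also had the lowest array medians (-0.466 and -0.464). Centred, CG5550 was lower on sitter 4 (0.578) than on Rover 3 (0.672). The lowest centred value of pst was on sitter 1 (0.634), with 0.698 on Rover 4 and 0.825 on Rover 3. The pattern did not hold on sitter 4, where Eig71Ee was low and CG5550 had its lowest sitter value. Over the 8 centred arrays pst and Eig71Ee had a Pearson r of -0.79 (Spearman rho -0.76), and CG5550 and Eig71Ee -0.62 (rho -0.48). Without the 2 arrays farthest from the median of the first gene these became -0.79 and -0.43. Eig71Ee was set beside them after its values were seen.

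The glue gene Sgs4, the other of the 2 measured salivary markers of 7 listed, had -3.15, -3.71, -0.82 and -0.56 on the Rover arrays, against 0.21, -0.59, -0.32 and -0.11 on the sitter arrays. Its 2 lowest arrays, Rover 1 and Rover 2, were the 2 highest of CG10910, and r between these genes was -0.89 (rho -0.90; -0.62 without Rover 1 and Rover 2). With CG5550 Sgs4 had an r of -0.69 (rho -0.52; -0.95 without Rover 2 and sitter 3). The fat body gene Fbp2 lay between 0.12 and 3.78 in Rover and between -4.27 and -0.016 in sitter, lowest on sitter 4, where CG10910 was lowest too. In Rover, however, Fbp2 was lowest on Rover 1 and Rover 2 (0.12 and 0.57), the 2 highest arrays of CG10910, and r over the 8 centred arrays was 0.56 (rho 0.74; 0.94 without Rover 1 and Rover 2). The median over the 6 measured fat body storage genes of 9 listed lay between -0.11 and 0.44 in Rover and between -0.62 and -0.30 in sitter. In whole larvae, fewer cells of a tissue and less RNA per cell cannot be told apart, and the part of these tissues in the ratios of the 5 genes was not tested.

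**Figure D4:**
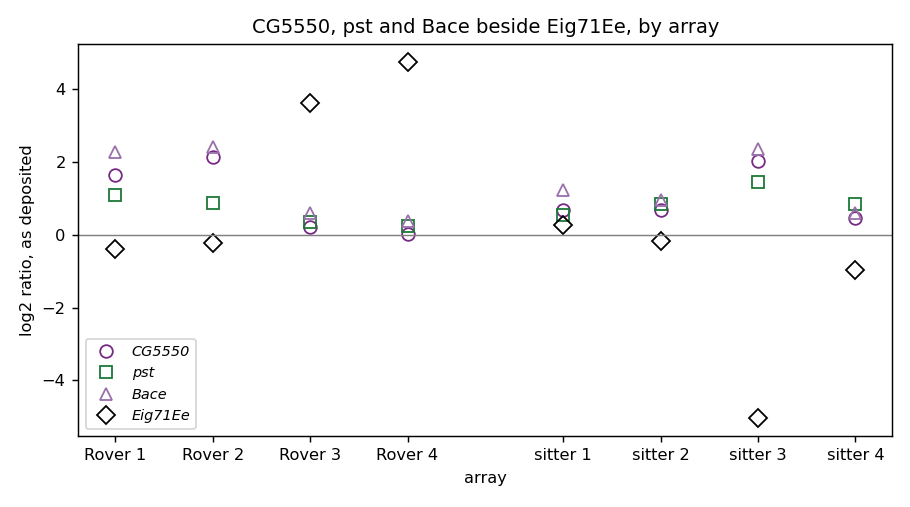
The vertical axis is the deposited log2 ratio of CG5550, pst, Bace and Eig71Ee, and the horizontal axis lists the 4 Rover and the 4 sitter arrays, 1 point per gene and array. On Rover 3 and Rover 4 Eig71Ee stands at 3.63 and 4.75 with the other 3 genes below 1, and on sitter 3 it stands at -5.03 with the others at their sitter maximum (2.03 for CG5550, 1.44 for pst and 2.35 for Bace).

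For each of the 5 genes, the named genes of most similar pattern were sought by Pearson r over the 8 centred arrays. The values are the highest over all named genes and describe these arrays only, which also share probes, print lots and dyes. CG5550 ran closest to Bace, which encodes an aspartyl protease of the beta-secretase family (r = 0.98, rho = 0.95, and 0.98 without Rover 2 and sitter 3). Bace had 2.27, 2.40, 0.59 and 0.37 on the Rover arrays, against 1.23, 0.96, 2.35 and 0.60 on the sitter arrays, so its high arrays were those of CG5550. The next gene was lace, for a subunit of serine palmitoyltransferase (r = 0.97), whose mean ratios were near 0 (-0.038 in Rover and 0.09 in sitter).

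CG10910 ran closest to cN-IIIB, a nucleotidase gene (r = 0.99), and Rbf, a retinoblastoma-family gene (r = 0.98), and Tsp42Ec to the chitinase gene Cht2 (r = 0.97) and the exoribonuclease gene Rat1 (r = 0.95). CG14302 ran closest to CG12934 (r = 0.94) and to ND-20, a subunit of respiratory complex I (r = 0.93), and pst to Mettl4 (r = 0.95) and CG44251 (r = 0.94). The mean ratios of these 8 genes ran from -0.017 for Rat1 to 0.37 for CG12934 in Rover, and from -0.0931 for Rat1 to 0.60 for CG44251 in sitter. Among the 5 genes themselves, r over the 8 centred arrays ran from -0.0941, for pst and Tsp42Ec, to 0.84, for CG5550 and pst (rho 0.76, and 0.82 without Rover 2 and sitter 3). The 5 genes thus had no single common pattern over the arrays.

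Of 35 listed tetraspanin genes 23 were measured, Tsp42Ec among them, whose positive sign was part of its choice. In the mean of both backgrounds, limma called 11 of the other 22 negative and 1 positive, and 10 did not pass, while 44.9% of all named genes were called negative and 2.36% positive. Their median was -0.38, against -0.24 over all named genes. The positive gene was Tsp2A, which is needed for septate junctions of the gut, at 0.13 ± 0.29 in Rover and 0.49 ± 0.28 in sitter (SD, n = 4 each). Centred, limma made 9 negative and 6 positive calls among the 22, leaving 7 that did not pass, where 28.5% of named genes were called negative and 26% positive.

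The difference between backgrounds passed for 0 of the 23 tetraspanins, and 2 reached p under 0.05 before adjustment (limma), where 0.0589% of named genes passed and 11.4% reached such a p. The 3 of smallest p were Tsp66A, at -0.64 in Rover and 0.033 in sitter (adjusted p = 0.455), Tsp42Ed, at -0.12 in Rover and 0.35 in sitter (adjusted p = 0.496), and Tsp42Ei, at -0.89 in Rover and -0.50 in sitter (adjusted p = 0.54).

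**Figure D5:**
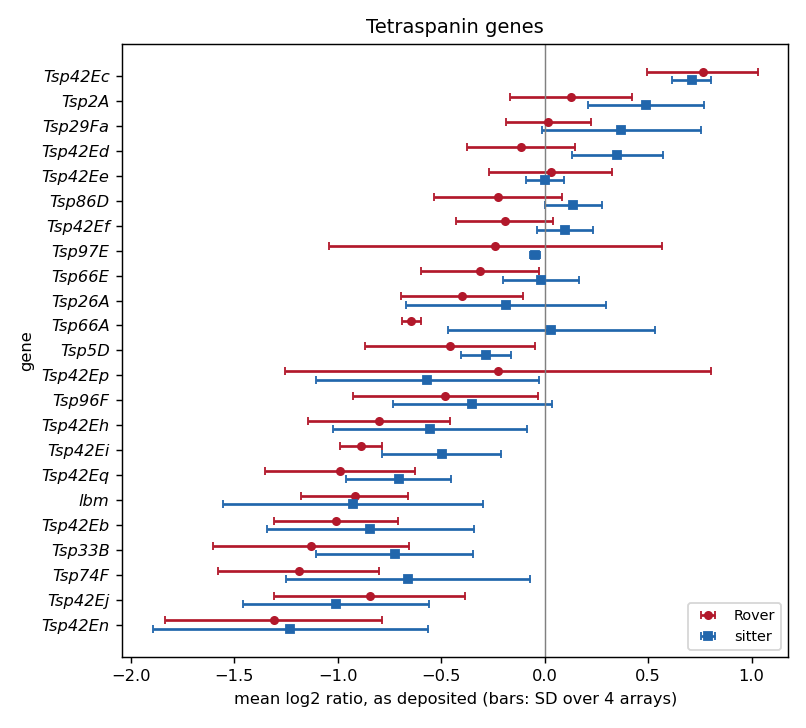
Mean log2 ratio (horizontal axis, bars are the SD over 4 arrays) of the 23 measured tetraspanin genes in Rover (red circles) and sitter (blue squares), ordered by the mean of both. Tsp42Ec, at 0.76 in Rover and 0.71 in sitter, lies at the top, and Tsp42En, at -1.31 in Rover and -1.23 in sitter, at the bottom.

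Many tetraspanin genes lie in a row with Tsp42Ec on chromosome arm 2R. Tsp42Eb, 2 genes before it in the Release 6 gene table, had -1.01 ± 0.30 in Rover and -0.84 ± 0.50 in sitter (SD, n = 4 each) and was called negative in each. On the other side Tsp42Ed and Tsp42Ee, next to Tsp42Ec and 2 genes away, had mean ratios over both backgrounds of 0.12 and 0.015 and did not pass.

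CG5550 and CG10910 are on arm 2R too, pst on 3L and CG14302 on 3R. Over the 3 protein-coding genes on either side of each of the 5, 15 of 30 were measured, and limma called 0 of them positive and 5 negative in the mean of both backgrounds (2.36% and 44.9% of all named genes). The called genes were Mekk1 (-0.47), PGS1 (-1.01) and gwl (-0.83) beside CG14302, RalGPS (-0.22) near CG5550, and Tsp42Eb. CG7715, directly before CG14302, stood at 0.24 and did not pass, and CG5084 was the 1 measured neighbour of CG10910, at -0.18. The 5 measured neighbours of pst lay between -0.32 and 0.19, and none passed.

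Of the other genes with a fibrinogen-like domain, 5 were measured, and limma called all 5 negative in Rover and 2 in sitter, where 44.7% and 20.2% of named genes were. CG6788 stood at -1.07 in Rover and -0.55 in sitter, CG1889 at -0.83 in Rover and -0.57 in sitter. Centred, 2 of the 5 were called negative in Rover and 0 in sitter, where 23% and 9.39% of named genes were. In the difference none of the 5 passed, and the 3 of smallest p were CG30281, at -0.70 in Rover and 0.0012 in sitter (adjusted p = 0.346), CG1791 (difference -0.50, adjusted p = 0.426) and CG10359 (-0.32, adjusted p = 0.507).

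Of other genes of antiviral defence beside pst, 5 were measured, of which limma called 2 negative and 0 positive in Rover, and 0 in sitter, where 44.7% of named genes were called negative in Rover and 20.2% in sitter. Dcr-2, which makes small interfering RNAs from viral RNA, had -1.33 ± 1.01 in Rover and -1.24 ± 1.26 in sitter (SD, n = 4 each), and the autophagy gene Atg7 had -0.80 in Rover and -0.30 in sitter. The remaining genes were near 0: r2d2, the partner of Dcr-2, had a mean over both backgrounds of 0.065, Sting -0.036 and ref(2)P 0.078. Centred, 2 of the 5 were called positive in Rover and 0 negative, where 22.9% of named genes were called positive and 23% negative. In the difference 0 of the 6, pst included, passed or reached a limma p under 0.05 before adjustment.

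In the order of genes by mean over both backgrounds, among 70 genes called positive and above 0 on all arrays, the 5 took places 1 (CG10910, at 1.64), 4 (CG14302, 1.12), 5 (CG5550, 0.98), 8 (pst, 0.78) and 10 (Tsp42Ec, 0.74). Drsl5, a gene of the drosomycin peptide family, stood just inside the last place at 0.75, and Top3alpha, a topoisomerase gene, just outside it at 0.72, with 0.25 in Rover and 1.20 in sitter.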

How the data were processed

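Per the labels, spot signals came from QuantArray v3 (adaptive method), and no background was subtracted. The authors deposited 1 ratio per spot, derived from normalised data, and these values were taken as log2 from their range. The normalisation method, log base, numerator and dyes are not given in the sources used here. Spots with 1 gene symbol in the probe table (15116 of 27648) were averaged per gene and array, symbols were updated through the Release 6 gene table, and other spots were kept by themselves, giving 19325 features. No filter on low values was used, and no value was missing.

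limma 3.58.1 in R 4.3.3 fitted a mean per background over all 8 arrays, with Benjamini-Hochberg adjustment over all features and a threshold of 0.05. It was tested on simulated data, in which 200 of 19325 features were shifted by a log2 change of 1 in Rover. At the threshold used it recovered 66% of these in the Rover ratio and 27% in Rover minus sitter. Differences of that size between backgrounds can therefore be missed. The simulated noise was normal around 0 with the same SD in both backgrounds. In the data 45% of features were called negative in Rover, and 61.8% of named genes had a larger SD there. The recovered shares therefore need not hold for these data, least of all for the Rover ratio. The number of arrays limits the precision.

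Print lot A held replicate 1 of Rover and of sitter (15.75 hours of hybridisation), and lot B the others (17.75 hours). The labels spell the lot of the 2 arrays of lot A slightly differently, and they were taken as 1 lot. The Cy5 gain was 64 on 5 arrays and 67 or 68 on 3. Alternatives were centring, scaling, moderation, weights, blocks, subsets of arrays, single spots and each array left out. Genes named were the 5, up to 3 of each of 8 lists by smallest p in Rover minus sitter, 2 of most similar pattern per gene, and the genes around the last place of the ordering. Other list genes named for their values, the neighbours, and Eig71Ee, Sgs4 and Fbp2 beside the array pattern were chosen after values were seen. The members and lists were chosen with earlier results of these data known.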

Additional observations from a re-analysis of the deposited data

Results flagged for a closer look

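CG5550 on sitter 3 stood far from the other sitter arrays: its log2 ratio there was 2.03, against 0.45 to 0.68 on the other 3, and the gap made up 0.859 of the range, above Dixon's 95% critical value for 4 samples. Both spots of the gene were high on that array (2.14 and 1.92), and Bace, with 2.35, was also highest there among the sitter arrays. The mean without sitter replicate 3 was 0.60. Over the 5 genes and 2 backgrounds 10 groups were examined, and chance gives such a gap in about 1 group of 20.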

How the results depend on the processing

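No alternative run made the difference between backgrounds pass for any of the 5 genes. That of CG10910 stayed positive in every alternative, from 1.29 with the arrays at a Cy5 gain of 64 (adjusted p = 0.736) to 2.03 without Rover replicate 4. The signs of 3 small differences turned. CG14302 turned to 0.118 after centring, but stood at -0.405 after centring and scaling. It ran from -0.198 to 0.0588 with single arrays left out. Tsp42Ec turned to -0.175 after centring and scaling, and ran from -0.0652 to 0.126. CG5550 turned to -0.0552 after centring and scaling, -0.562 at a Cy5 gain of 64 and -0.262 in lot B alone, and ran from -0.332 to 0.403. That of pst stayed negative, from -0.101 without sitter replicate 3 to -0.429 without Rover replicate 1 with single arrays left out, -0.654 at a Cy5 gain of 64, -0.557 in lot B alone and -0.0718 centred. In spread, Rover minus sitter, CG14302 turned to -0.0167 and pst to -0.0284 after centring, and with arrays left out CG14302 ran from -0.0779 to 0.0992 (-0.00983 in the other reversal) and pst from -0.0191 to 0.239. With an array of a background left out, the middle one of the rest deviates by nothing, which lowers the mean deviation there. The negative spread values with arrays left out all came from leaving out a Rover array, and the largest ones from leaving out a sitter array. How far this made those reversals was not tested, nor was the cause of the others. The number of the 5 called in sitter went from 3 to 5 after centring and scaling, and ran from 0 to 3 with arrays left out. It was 0 without sitter replicate 2 or 3, when the sitter means of CG14302 were 1.19 and 1.07. In these 2 runs limma called 24 and 22 features in all, against 4443 negative and 140 positive calls with all arrays. At an unadjusted limma p under 0.05 there were 5124 and 5049 features, against 7335 with all arrays. The mean of CG5550 missed the threshold with the arrays at a Cy5 gain of 64 (adjusted p = 0.0553) and in lot B alone (0.0535). Sitter calls over all features were 2659 after centring, 6726 after centring and scaling and 2648 with sitter fitted by itself, and the difference was called for 15 features after centring and 2 after centring and scaling, against 9. The Rover call of pst was lost when Rover replicate 1 (0.486, adjusted p = 0.0737) or 2 (0.564, 0.0756) was left out.

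Arrays sharing a replicate number deviated together at r of 0.31, 0.12, 0.062 and 0.057, so the numbers were not taken as pairs. With the replicate block 4 of the 5 were called in sitter, CG10910 being added, the difference passed for 0 and that of CG10910 kept its value of 1.74 (adjusted p = 0.227). Signal over background was not available.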

Other observations

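Lists of larval tissue genes without any of the 5 were also counted. Over all named genes limma called 44.7% negative and 1.72% positive in Rover, and 20.2% negative and 0.942% positive in sitter, and after centring 23% negative and 22.9% positive in Rover, and 9.39% negative and 2.68% positive in sitter. Of 7 measured plasmatocyte genes limma called 4 negative in Rover and 3 in sitter, 0 positive, including the hemolectin gene Hml at -0.81 in Rover and -0.71 in sitter and the scavenger receptor gene eater at -0.88 in Rover and -0.83 in sitter. After centring 3 were negative in Rover and 1 in sitter. In the difference 0 of 7 passed, the smallest p being those of the collagen genes vkg (adjusted p = 0.724) and Col4a1 (0.747) and of Hml (0.901). Of 17 midgut digestive genes 3 were negative in Rover and 2 in sitter, with 0 positive, while after centring 5 were positive in Rover and 1 in sitter, with 0 negative. For these genes 0 passed in the difference, led by the maltase genes Mal-A2 (difference -0.51, adjusted p = 0.465) and Mal-A3 (-0.49, 0.581) and by Jon99Fii (0.39, 0.581).

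Of 13 chitin-binding and chitinase genes 1 was negative in Rover, Cht10 at -0.89, which was negative in sitter too at -0.69, and obst-F was the 1 positive gene in sitter at 0.44. After centring 6 were positive and 1 negative in Rover, and 1 positive and 0 negative in sitter. In the difference 0 of 13 passed, the smallest p being those of verm (0.31, adjusted p = 0.559), obst-A (-0.32, 0.568) and obst-J (0.36, 0.62). The fat body genes of smallest p in the difference were apolpp (0.48, adjusted p = 0.449), Fbp2 (2.94, 0.458) and Lsp2 (2.09, 0.464), and 0 of 6 passed. Among the salivary genes Sgs4 differed by -1.86 (adjusted p = 0.462) and Eig71Ee by 3.42 (0.522), in opposite directions.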
